A study of Homo sapiens with 12 samples.

Results

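The genes described here encode the proteins of the cytosolic ribosome. They were taken as every gene with an array feature of its own whose symbol is that of a ribosomal protein of the large (RPL) or small (RPS) subunit or of the ribosomal stalk, leaving out kinases with similar symbols and pseudogenes. This gave 64 of the 18417 genes measured, 22 of them of the small subunit and 42 of the large subunit. Of 84 protein-coding RefSeq genes whose symbol has this form, 20 had no feature of their own and were not analysed here, among them RPLP0, RPSA, RPS10, RPS26 and RPL39. The 64 genes had 99 features, and each of the 23 genes with more than 1 was read from the feature with the highest mean.

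RNA came from MDA-MB-231, a human breast cancer cell line, on 12 one-colour arrays, 3 in each of 4 groups. The groups were TTR cells (treated to resistance) given TRAIL at 100 ng per ml for 2 h, untreated TTR cells, parental cells given the same TRAIL treatment, and untreated parental cells. TRAIL is a ligand of the tumour necrosis factor family that binds death receptors and can start apoptosis. The labels do not say how resistance was selected, whether the TTR line is 1 clone, or whether the 3 arrays of a group came from separate cultures, so p-values measure the spread between these arrays, which may be technical. A tag in the sample descriptions that is not explained there also differs between the TTR and the parental arrays and cannot be told apart from the line.

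A ribosome is built from ribosomal RNA and one copy of most of these proteins, so cells make the proteins in matched amounts and degrade those left over. Most ribosomal protein mRNAs start with a C followed by a run of pyrimidines, the 5' terminal oligopyrimidine (TOP) tract. Through it the growth kinase mTORC1 and the RNA-binding protein LARP1 control how much of the mRNA is translated and how stable it is. Many ribosomal protein genes also carry small nucleolar RNAs (snoRNAs) in their introns, which guide the chemical modification of ribosomal RNA. Some ribosomal proteins act outside the ribosome: free RPL5 and RPL11, bound to 5S rRNA, inhibit MDM2, the ubiquitin ligase that keeps p53 low.

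The start sites of some of the genes named below are shown first, because the TOP tract is the feature that most ribosomal protein mRNAs have in common. Each window is read from RefSeq on GRCh38.p14 and runs from 15 bases before the annotated start through the first 15 bases of the transcript, 30 in all, with any pyrimidine tract in capitals. A tract was counted where a C opened a run of at least 5 letters C or T within 10 bases of the annotated start. RPS13 and RPL18 fell with TRAIL in parental cells, RPL28 and RPL13 rose there, and RPS21 and RPL22L1 were lower in TTR cells. RPS27 and RPL26 are shown beside their less common paralogs RPS27L and RPL26L1.
RPS13, chr11:17077653-17077682, minus strand: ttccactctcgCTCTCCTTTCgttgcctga
RPL18, chr19:48619164-48619193, minus strand: accccagcccgttCTCTCTTTCCggacctg
RPL28, chr19:55385917-55385946, plus strand: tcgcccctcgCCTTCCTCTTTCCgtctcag
RPL13, chr16:89560667-89560696, plus strand: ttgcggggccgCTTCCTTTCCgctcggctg
RPS21, chr20:62387088-62387117, plus strand: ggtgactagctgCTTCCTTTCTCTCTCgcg
RPL22L1, chr3:170870181-170870210, minus strand: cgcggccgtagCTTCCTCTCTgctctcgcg
RPS27, chr1:153990747-153990776, plus strand: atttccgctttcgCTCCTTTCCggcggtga
RPS27L, chr15:63157463-63157492, minus strand: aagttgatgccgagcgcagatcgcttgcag
RPL26, chr17:8383179-8383208, minus strand: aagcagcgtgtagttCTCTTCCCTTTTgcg
RPL26L1, chr5:172958714-172958743, plus strand: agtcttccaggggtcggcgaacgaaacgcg
A tract stood at the start of the printed genes that rose, fell or were lower in TTR cells, and in neither RPS27L nor RPL26L1. RPL13 has 3 annotated starts and RPL26L1 has 2, and 1 of each is printed. The other starts of RPL13 and of RPL26L1 held no tract. RPL32, which also rose and has 3 annotated starts, is not printed. It held runs of 6 and 5 letters, and no tract at its remaining start. No start window was available for RPL5.

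The RefSeq promoter table held 53 of the 64 genes, 8 of them with several starts, any of which could hold a match. The tract was found in 45 of these 53 (84.9%), against 38.9% of 15842 coding genes. Among the genes called in parental cells that the table held, it was found in 14 of 14 that rose with TRAIL and in 14 of 16 that fell. The window from 250 bases before to 50 bases after the start was also searched on both strands for short motifs. The ETS-family core CCGGAA was present in 58.5% of the ribosomal protein genes and in 26.6% of all coding genes, and the Sp1 box GGGCGG in 62.3% and 64.3%. The Sp1 box was found in 6 of the 14 genes that rose and in 14 of the 16 that fell. The YY1 letters AAGATGGC were found in 9.43% against 4.66%, the E-box CACGTG in 7.55% against 10.9%, and the AP-1 site TGACTCA in 1.89% against 5.26%. The counts among genes that rose and among those that fell were 9 of 14 and 9 of 16 for the ETS-family core, 1 and 2 for YY1, 1 and 0 for the E-box, and 0 and 0 for AP-1, and no difference between genes that rose and genes that fell was tested. A match in letters is a description of the sequence, and binding was not measured.

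Ribosomal protein mRNAs gave some of the highest signals on these arrays, and their overall level was alike on all of them. The median log2 level of the 64 genes lay between 10.87 and 11.07 on all 12 arrays. Of the 64, 55 belonged to the tenth of genes with the highest mean level (1842 genes, called strongly measured here). The features with the highest means over all arrays were those of RPL8 (12.49), RPS3 (12.40), RPL18 (12.39), RPS13 (12.37) and RPL5 (12.24). The lowest were those of RPL10L (3.81), RPL22 (4.55), RPL3L (4.72), RPS27L (4.98) and RPL17 (5.46). Levels of different features do not rank the genes, since each feature has its own probes. No measure of detection above background was used, so the low levels can be background. Ribosomal protein genes have many processed pseudogenes of near-identical sequence, and signal from them cannot be told apart from that of the parent gene.

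The 3 arrays of parental cells with TRAIL differed from the remaining 9 in the spread of all values. The median feature on them was 4.58 to 4.61, against 4.24 to 4.40 on the other arrays, and the level that the tenth of genes with the highest signal exceeded was 7.907 to 7.997, against 8.372 to 8.493. The labelled line was checked with 5 genes of MDA-MB-231 (VIM, CD44, EGFR, AXL, SPARC), whose mean log2 level was 8.78 to 9.39 over the arrays. The means were 5.90 to 6.13 for 8 luminal breast genes, 3.34 to 3.68 for 5 blood genes and 3.56 to 3.92 for 7 fibroblast and endothelial genes. Neither breast list was uniform: of the MDA-MB-231 genes SPARC was at 3.85 to 4.75, and of the luminal genes the keratins KRT8, KRT18 and KRT19 were at 10.28 to 11.21, 10.41 to 10.83 and 7.59 to 8.73, while ESR1, the estrogen receptor, was at 3.32 to 3.87. The blood gene PTPRC was at 2.07 to 2.54.

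The first question was what TRAIL did to these mRNAs in parental cells. Ribosomal protein mRNAs did not move as a block: 16 of the 64 rose, 21 fell and 27 were not called (limma, Benjamini-Hochberg adjusted p below 0.05 over all genes). RPL28 and RPL32 rose by more than 2-fold and RPL5, on the feature kept, fell by more than 2-fold. Over all genes 28.9% were called higher and 29.9% lower, so the shares of these genes, 25.0% and 32.8%, were near the background. Among the 1787 other strongly measured genes, 15.6% were called higher and 71.3% lower. The median log2 change was 0.01 for the ribosomal protein genes, 0.05 for all genes and −0.79 for the strongly measured genes. Changes of at least 2-fold were seen in 3 of the 64 (4.69%), against 17.5% of all genes and 47.0% of the strongly measured ones. These sets were not matched in level. The median ribosomal protein gene lay at 10.87 to 11.07 on the arrays, while the tenth of genes with the highest signal began at 7.907 to 8.493. Whether the size of a change depends on the level was not tested. In bulk RNA, fewer cells and less of an mRNA per cell cannot be told apart, and no spike-in shows whether the RNA of a whole array went up or down.

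**Figure D1:**
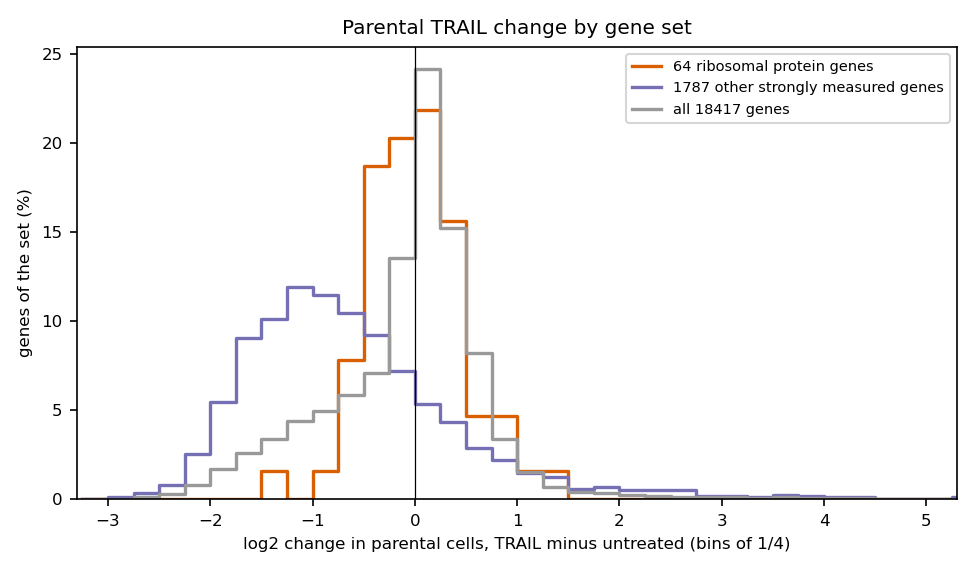
Share of genes (vertical axis, percent of the set) by log2 change of parental cells with TRAIL minus untreated parental cells (horizontal axis, in bins), for the 64 ribosomal protein genes, the 1787 other strongly measured genes and all 18417 genes. The ribosomal protein genes centre near 0 with a median of 0.01, while the other strongly measured genes centre at −0.79. The sets are not matched in level.

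The balance of rises and falls depended on how the arrays were scaled. Centring each array on its median moved the median change of all genes to −0.24 and that of the ribosomal protein genes to −0.29, with 5 called higher and 34 lower, against 12.6% and 46.7% of all genes. After a further quantile normalization 19 were called higher and 21 lower, with a median of 0.05, against 19.1% and 31.4% of all genes. Under all 3 scalings 5 genes were called higher (RPL13, RPL22L1, RPL28, RPL32 and RPL3L). Under the same 3 scalings 20 were called lower: RPL3, RPL4, RPL5, RPL7, RPL8, RPL14, RPL18, RPL22, RPL30, RPL34, RPL35A, RPS3, RPS3A, RPS4X, RPS6, RPS7, RPS13, RPS14, RPS15A and RPS29. These calls are those of the features kept, and another feature of RPL34 changed by 0.99. Of the small-subunit genes 3 of 22 were called higher and 10 lower, with a median of −0.11, and of the large-subunit genes 13 of 42 were called higher and 11 lower, with a median of 0.10. The difference between the subunits was not tested.

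**Figure D2:**
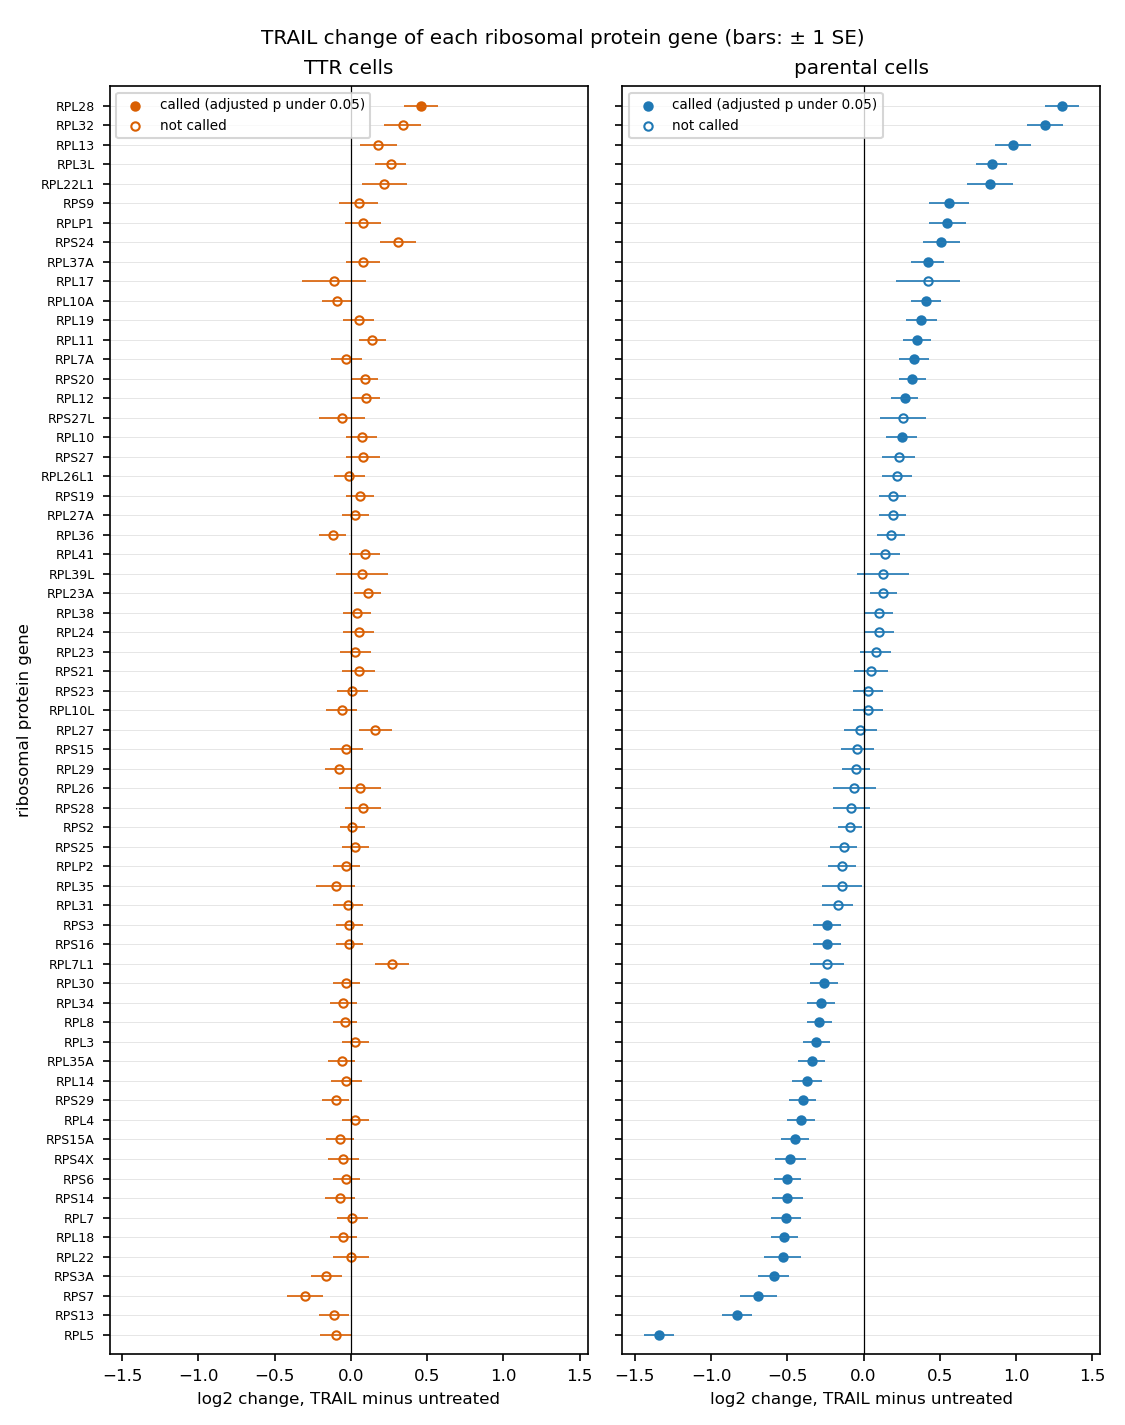
Log2 change with TRAIL (horizontal axis, TRAIL minus untreated, with 1 SE on each side) of each of the 64 ribosomal protein genes in TTR cells (left) and parental cells (right), ordered by the change in parental cells. Filled circles passed the test at an adjusted p below 0.05: 1 gene in TTR cells and 37 in parental cells.

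On the features kept, RPL5 fell the furthest. It encodes a large-subunit protein that carries 5S rRNA into the ribosome. Its log2 levels were 11.39, 11.05 and 11.37 in parental cells with TRAIL, against 12.63, 12.64 and 12.57 in untreated parental cells. The groups lay more than 1 log2 unit apart, and the change was −1.34 ± 0.10 (SE, n = 3 arrays a group), or 2.54-fold lower, with an adjusted p of 6.51e-09. The call held in all 23 settings tried. The size depended on the feature: the other 2 features of RPL5, with means of 11.96 and 6.80, changed by −0.96 and −0.41, so the fall passed 2-fold on 1 of 3 features. The position of each feature on the genome was not checked. Whether the feature kept reads RPL5 itself or a copy of it is therefore not known. The change of −0.41 was smaller in size than those of RPS13, RPS7 and RPS3A given below. Among the 23 genes with several features, 7 had a feature whose change lay more than 0.5 from that of the feature kept (RPL5, RPL12, RPL27A, RPL34, RPL41, RPS15 and RPS25). Besides RPL5, these features changed by 1.30 (RPL12), 0.80 and 1.23 (RPL27A), 0.99 (RPL34), 0.82 (RPL41), 1.15 (RPS15) and −0.83 (RPS25). The features kept changed by 0.27, 0.19, −0.28, 0.14, −0.04 and −0.13 in the same order. RPL11, the partner of RPL5 in the complex with 5S rRNA, did not fall with RPL5. RPL11 was at 10.56, 10.61 and 10.49 in parental cells with TRAIL, against 10.30, 10.19 and 10.13 in untreated parental cells, a change of 0.35 ± 0.09 (adjusted p = 0.00421). After median centring the change of RPL11 was 0.06, and its adjusted p ran from 0.00121 to 0.616 over the settings.

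Among small-subunit genes RPS13, RPS7 and RPS3A fell the most. RPS13 stood at 11.97, 11.68 and 11.99 in parental cells with TRAIL, against 12.80, 12.71 and 12.62 in untreated parental cells (change −0.83 ± 0.10, adjusted p = 2.82e-06). RPS7, a small-subunit protein that can also bind MDM2, was at 9.10, 8.96 and 8.98 with TRAIL, against 9.78, 9.54 and 9.78 without it (−0.69 ± 0.12, adjusted p = 1.46e-04). RPS3A was at 11.375, 11.165 and 11.237 with TRAIL, against 11.805, 11.731 and 11.999 without it (−0.59 ± 0.10, adjusted p = 8.39e-05). None of these groups overlapped. RPS14, the gene lost in the 5q deletion syndrome of bone marrow, fell by 0.50 ± 0.10, with levels of 11.33, 11.20 and 11.25 in TRAIL-treated and 11.83, 11.67 and 11.79 in untreated parental cells. RPS6, the ribosomal substrate of the S6 kinases downstream of mTORC1, fell by 0.50 ± 0.09, with levels of 10.77, 10.59 and 10.60 in TRAIL-treated and 11.12, 11.15 and 11.17 in untreated parental cells.

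Of the large-subunit genes RPL22, RPL18 and RPL7 also fell. RPL18 stood at 12.13, 11.93 and 12.08 in parental cells with TRAIL, against 12.54, 12.52 and 12.62 in untreated parental cells (−0.52 ± 0.09, adjusted p = 1.30e-04). RPL7 stood at 10.66, 10.29 and 10.50 with TRAIL, against 11.00, 11.00 and 10.99 without it (−0.51 ± 0.10, adjusted p = 3.50e-04), and all 3 of its features changed by −0.47 to −0.51. RPL22, an RNA-binding protein of the large subunit, was near the low end of the scale at 4.37, 4.33 and 3.90 with TRAIL, against 4.75, 4.77 and 4.69 without it (−0.53 ± 0.12, adjusted p = 0.00101). The other 12 genes called lower fell by 0.24 to 0.48, and 1 of them, RPL34, had a second feature that moved the other way, by 0.99.

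RPL28, RPL32 and RPL13, all of the large subunit, rose the most. RPL28 was at 10.59, 10.79 and 10.49 in parental cells with TRAIL, against 9.28, 9.39 and 9.30 in untreated parental cells (1.30 ± 0.11, 2.46-fold, adjusted p = 3.16e-08). RPL32 was at 9.179, 9.144 and 8.894 with TRAIL, against 8.001, 7.695 and 7.939 without it (1.19 ± 0.12, 2.29-fold, adjusted p = 2.98e-07). RPL13 was at 10.49, 10.63 and 10.41 with TRAIL, against 9.45, 9.45 and 9.68 without it (0.98 ± 0.12, adjusted p = 1.94e-06). For each of these genes the lowest TRAIL array lay above the highest untreated one.

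Smaller rises were seen in RPS9, RPLP1 and RPS24, and these depended on scaling. RPS9, a protein of the decoding subunit, stood at 11.21, 11.25 and 11.26 in parental cells with TRAIL, against 10.63, 10.55 and 10.86 in untreated parental cells (0.56 ± 0.13, adjusted p = 0.00181). RPLP1, an acidic protein of the stalk that recruits elongation factors, stood at 11.71, 11.73 and 11.79 with TRAIL, against 11.19, 11.09 and 11.29 without it (0.55 ± 0.12, adjusted p = 8.91e-04). RPS24 stood at 10.23, 10.17 and 9.88 with TRAIL, against 9.69, 9.47 and 9.60 without it (0.51 ± 0.12, adjusted p = 0.00134). After median centring these changes were 0.27, 0.26 and 0.22 and none passed. Over all settings the adjusted p ran from 2.42e-04 to 0.0938 for RPS9, from 2.07e-04 to 0.0739 for RPLP1 and from 2.44e-04 to 0.131 for RPS24. The other 8 genes called higher rose by 0.25 to 0.42, and none of these 8 passed after median centring. RPL10 was among them, with 0.25 ± 0.10 as deposited and −0.04 after centring (adjusted p = 0.768 there and 0.0173 to 0.768 over the settings).

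**Figure D3:**
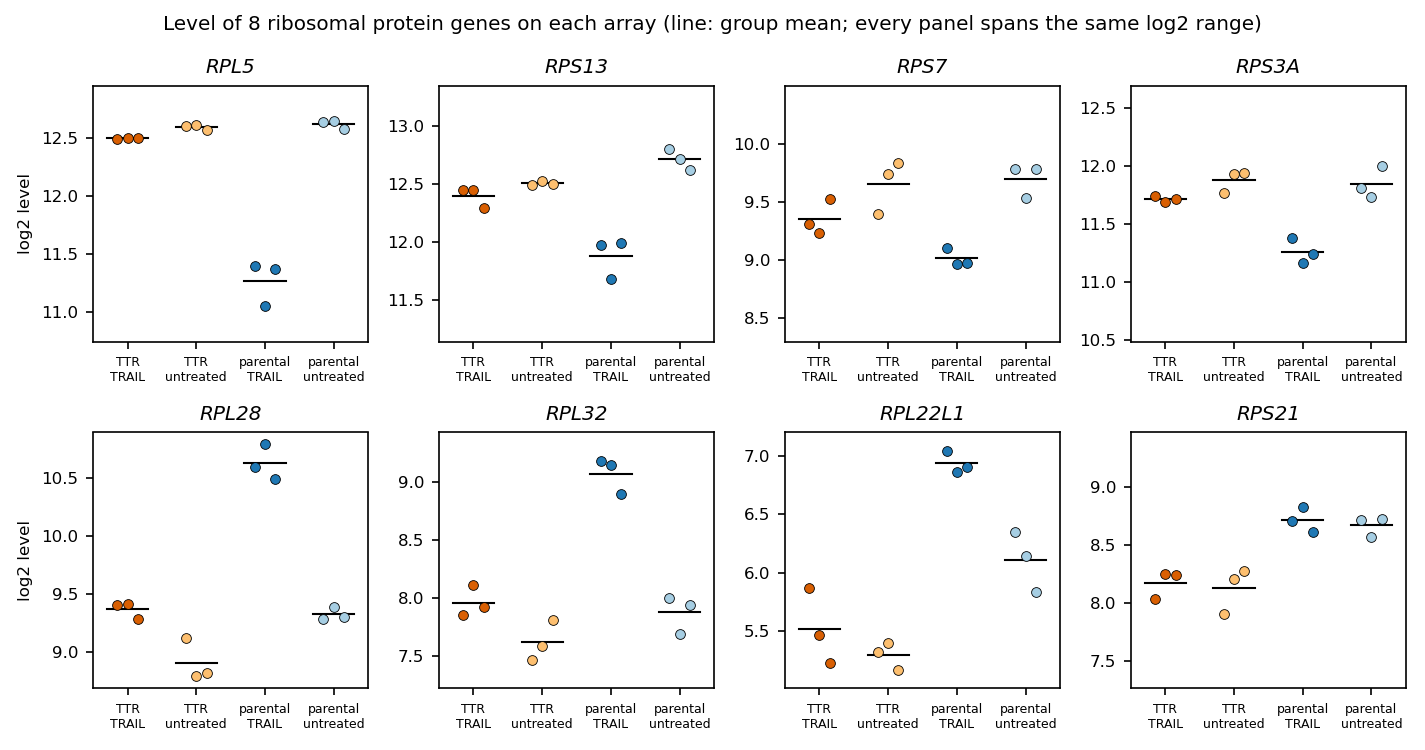
Log2 level (vertical axis, each panel covering the same span) of 8 ribosomal protein genes on each of the 12 arrays, by group: TTR with TRAIL, TTR untreated, parental with TRAIL and parental untreated. Points are arrays and lines are group means. The parental TRAIL arrays are apart from the other groups for 7 of the 8 genes, while for RPS21 both TTR groups lie below both parental groups.

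Several ribosomal proteins have a paralog that is made mainly in certain tissues. RPL22L1, the paralog of RPL22, stood at 7.05, 6.87 and 6.91 in parental cells with TRAIL, against 6.35, 6.14 and 5.83 in untreated parental cells (0.83 ± 0.15, adjusted p = 1.67e-04). The feature of RPL22 itself fell by 0.53, so the features of these paralogs moved in opposite directions in these cells. The level of RPL22 was low (mean 4.55) and can be background. RPL3L, the striated-muscle paralog of RPL3, rose by 0.84 ± 0.10 (adjusted p = 1.23e-06) at a low level, 5.33, 5.50 and 5.42 with TRAIL against 4.60, 4.64 and 4.48 without it, while RPL3 fell by 0.31 ± 0.09 (adjusted p = 0.00667). The other paralogs with a feature of their own, RPL7L1, RPL10L, RPL26L1, RPL39L and RPS27L, were not called, with changes of −0.24, 0.03, 0.22, 0.13 and 0.26.

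Genes mutated in Diamond-Blackfan anaemia, an inherited failure of red cell production, moved in both directions. RPL5 fell and RPL11 and RPS24 rose as given above, and RPL35A fell by 0.34 ± 0.09 (adjusted p = 0.00258). RPS19, the gene mutated most often in this disease, changed by 0.19 ± 0.09 and was not called (adjusted p = 0.0836). The stalk protein RPLP2 was not called either, at −0.14 ± 0.09 (adjusted p = 0.186).

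The second question was whether TRAIL did the same in TTR cells. Here 1 of the 64 genes rose, RPL28, and none was called lower (limma). Over all genes 3.27% were called higher and 2.55% lower. At an unadjusted p below 0.05, 5 of the 64 were higher and 1 lower, against 1586 and 2208 of all 18417 genes. With array weights 3 of the 64 were called higher and 1 lower. TTR arrays of the same replicate number deviated together (r = 0.146 to 0.395 in the 3 pairs). When these pairs were made a block and the TTR arrays fitted alone, a setting added after the data were seen, 3 of the 64 genes were called higher and 0 lower, against 6.09% and 8.41% of all genes. They were RPL28 (adjusted p = 0.0138), RPS24 (0.31 ± 0.08, adjusted p = 0.0315) and RPL32 (0.34 ± 0.10, adjusted p = 0.0492), while the same block over all 12 arrays called 1 higher. Over all settings the adjusted p ran from 0.0315 to 0.338 for RPS24 and from 0.0216 to 0.357 for RPL32. The median log2 change was 0.01, and the largest change in size was 0.46. RPL28 stood at 9.41, 9.41 and 9.28 in TTR cells with TRAIL, against 9.12, 8.79 and 8.82 in untreated TTR cells (0.46 ± 0.11, 1.37-fold, adjusted p = 0.0236). The groups did not overlap, yet the call was lost without untreated TTR array 2 or 3 or without TTR TRAIL array 1 or 2, and its adjusted p ran from 9.39e-04 to 0.111 over the settings.

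RPL5 was at 12.49, 12.50 and 12.50 in TTR cells with TRAIL, against 12.60, 12.61 and 12.57 in untreated TTR cells. These groups did not overlap, but the change of −0.10 ± 0.10 was not called (adjusted p = 0.648). RPS7 had the most negative change in TTR cells, −0.30 ± 0.12 (adjusted p = 0.169), with levels of 9.31, 9.23 and 9.52 against 9.39, 9.74 and 9.83, so the groups overlapped. RPS7 was the gene called lower with array weights. RPS3A changed by −0.16 ± 0.10 (adjusted p = 0.395). RPL22L1 stood at 5.87, 5.46 and 5.22 in TTR cells with TRAIL, against 5.32, 5.40 and 5.16 in untreated TTR cells.

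The test of the difference between the lines, the change in TTR cells minus the change in parental cells, called 13 of the 64 genes higher and 8 lower. Over all genes it called 22.9% higher and 14.3% lower, and among the 1787 other strongly measured genes 65.0% and 10.1%. After median centring the split was 23 higher and 4 lower, against 29.4% and 6.92% of all genes, and after quantile normalization 11 and 12, against 21.4% and 12.5%. In 20 of the 21 genes called as deposited the change was nearer to 0 in TTR cells. The median size of the change over all genes was 0.12 in TTR cells and 0.37 in parental cells. This count was not made over all genes, so it does not set the ribosomal protein genes apart. On the features kept, RPL5 had the largest difference, 1.25 ± 0.14 (adjusted p = 4.90e-06). RPS13 followed on the same side at 0.72 ± 0.14 (adjusted p = 8.95e-04). RPL22, RPL7, RPL18, RPS6 and RPL4 differed by 0.44 to 0.53. On the other side were RPL32 at −0.85 ± 0.17 (adjusted p = 8.95e-04), RPL28 at −0.84 ± 0.15 (adjusted p = 4.12e-04), RPL13 at −0.80 ± 0.17 (adjusted p = 0.00116) and RPL3L at −0.57 ± 0.14 (adjusted p = 0.00328).

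RPL22L1 (−0.61), RPS9 (−0.51), RPL10A (−0.50) and RPLP1 (−0.47) were also called lower in this test, and none of these 4 passed after median centring. Their highest adjusted p over the settings was 0.147, 0.203, 0.106 and 0.218. RPL7L1 was the called gene whose change was not smaller in size in TTR cells. RPL7L1 is a nucleolar relative of RPL7 with a role in making the large subunit. It changed by 0.27 ± 0.11 with TRAIL in TTR cells (adjusted p = 0.169) and by −0.24 ± 0.11 in parental cells (adjusted p = 0.0817). Neither change was called alone, and the difference of 0.51 ± 0.16 was (adjusted p = 0.0182, and 0.00249 to 0.0814 over the settings, the highest after quantile normalization).

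The third question was how the lines differed before TRAIL. Of the 64 genes 4 were lower in untreated TTR cells than in untreated parental cells and none was called higher (limma), against 3.47% of all genes called lower and 3.64% called higher. At an unadjusted p below 0.05, 10 of the 64 were lower and 1 higher, against 1745 and 1730 of all 18417 genes. The median log2 difference was −0.10, against −0.01 over all genes.

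RPL22L1 differed most. It stood at 5.32, 5.40 and 5.16 in untreated TTR cells, against 6.35, 6.14 and 5.83 in untreated parental cells (−0.81 ± 0.15, 1.76-fold lower, adjusted p = 0.0033). RPS21, a protein of the small subunit, stood at 7.91, 8.20 and 8.27 in TTR cells, against 8.72, 8.57 and 8.72 in parental cells (−0.54 ± 0.11, 1.45-fold lower, adjusted p = 0.00642). Both pairs of groups lay apart, and both calls held in all the settings tried. RPL28 was 0.41 ± 0.11 lower (adjusted p = 0.0305, and 0.00277 to 0.143 over the settings), and the call was lost without any one of the untreated parental arrays or of untreated TTR arrays 2 and 3.

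RPS25, a small-subunit protein needed for translation from some internal ribosome entry sites, stood at 11.61, 11.63 and 11.64 in untreated TTR cells, against 11.97, 11.91 and 11.91 in untreated parental cells. The arrays of each group lay close together, and the difference was −0.31 ± 0.09 (adjusted p = 0.0443). It passed in 10 of 24 settings, with an adjusted p of 0.0681 after median centring, 0.0596 after quantile normalization and 0.0131 to 0.147 over all of them. RPS27L, which p53 is known to induce, had the most positive difference, 0.38 ± 0.15, and was not called (adjusted p = 0.148).

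Between the lines with TRAIL, 15 of the 64 genes were higher in TTR cells and 22 lower. Over all genes 28.0% were called higher and 26.4% lower, and among the other strongly measured genes 68.7% and 13.4%. The median log2 difference was −0.09 for the ribosomal protein genes and 0.69 for the other strongly measured genes. After median centring 25 were higher and 12 lower, against 37.1% and 13.0% of all genes, and after quantile normalization 14 and 23, against 27.8% and 19.4%. This comparison shares its parental TRAIL arrays with the first one. RPL5 was 1.22 ± 0.10 higher in TTR cells with TRAIL than in parental cells with TRAIL (2.33-fold, adjusted p = 3.31e-08; 0.89 and 0.32 on its other features), and RPS13 was 0.51 higher. RPL22L1 was 1.42 ± 0.15 lower (2.68-fold, adjusted p = 6.99e-07).

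RPS21 stood at 8.03, 8.25 and 8.24 in TTR cells with TRAIL, against 8.70, 8.82 and 8.61 in parental cells with TRAIL, a difference of −0.54 ± 0.11 (adjusted p = 6.28e-04) that equals the one without TRAIL to 2 decimals. TRAIL left no called change of RPS21 in either line. RPL10A (−0.63), RPLP1 (−0.63) and RPS9 (−0.59) were lower in TTR cells with TRAIL under all 3 scalings. RPS7, which was 0.34 higher, lost its call after quantile normalization (adjusted p = 0.315, range 0.00163 to 0.315).

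Of the 64 genes, 19 were called in none of the 5 comparisons. The share of all genes called in none was not counted, so the 19 cannot be set against a background. The 19 were RPL10L, RPL17, RPL23, RPL23A, RPL24, RPL26, RPL27, RPL29, RPL31, RPL35, RPL38, RPL39L, RPL41, RPLP2, RPS2, RPS15, RPS23, RPS27L and RPS28. RPL41, the smallest ribosomal protein, was at 11.66, 11.70 and 11.85 in TTR cells with TRAIL, 11.54, 11.74 and 11.66 in untreated TTR cells, 11.84, 11.86 and 12.03 in parental cells with TRAIL and 11.68, 11.77 and 11.86 in untreated parental cells. In each line the arrays with and without TRAIL overlapped. These calls are those of the features kept: another feature of RPL41, with a mean of 6.74, changed by 0.82 with TRAIL in parental cells and differed by −0.87 between TTR and parental cells with TRAIL, and a second feature of RPS15, with a mean of 5.21, by 1.15 and −1.12.

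The snoRNAs that lie inside these genes nearly all rose in parental cells, inside hosts that rose and hosts that fell. Of 41 such snoRNAs, 18 had a feature of their own. With TRAIL 17 of the 18 rose, with a median log2 change of 1.67, against 28.9% of all genes called higher. None fell (limma, and 0 lower at an unadjusted p below 0.05, against 5684 of all 18417 genes). After median centring 16 rose, against 12.6% of all genes. SNORD54, inside RPS20, stood at 9.09, 9.04 and 9.08 in parental cells with TRAIL, against 5.52, 5.26 and 5.37 in untreated parental cells (3.69 ± 0.11), while RPS20 rose by 0.32. SNORD43, inside RPL3, stood at 10.95, 11.18 and 10.95 with TRAIL, against 7.60, 7.73 and 7.77 without it (3.32 ± 0.13), while RPL3 fell by 0.31. SNORD21, inside RPL5, rose by 0.86 while RPL5 fell by 1.34 on the feature kept and by 0.96 and 0.41 on its others. SNORA65, inside RPL12, rose by 2.99 ± 0.18 and SNORD15A, inside RPS3, by 2.04 ± 0.11. SNORA3B, inside RPL27A, was the one not called (0.02, adjusted p = 0.918).

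In TTR cells 3 of the 18 snoRNAs rose with TRAIL, against 3.27% of all genes: SNORD43 by 1.27, SNORD15A by 0.77 and SNORA65 by 0.72. The difference between the lines was called lower for 17, all with the smaller change in TTR cells, against 14.3% of all genes called lower. The median size of change was also smaller in TTR cells over all genes, as given above. Without TRAIL 1 of the 18, SNORD15A, was lower in TTR cells (−0.77), against 3.47% of all genes. The tables used here do not give strand, so a snoRNA was placed inside a gene by position alone, and a snoRNA feature may also read unspliced host RNA. The 20 ribosomal protein genes with a snoRNA gene inside had 7 called higher and 7 lower with TRAIL in parental cells, with a median of 0.11. The other 44 had 9 and 14, with a median of −0.03. Over all genes 28.9% were called higher and 29.9% lower, and no difference between the 20 and the 44 was tested.

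**Figure D4:**
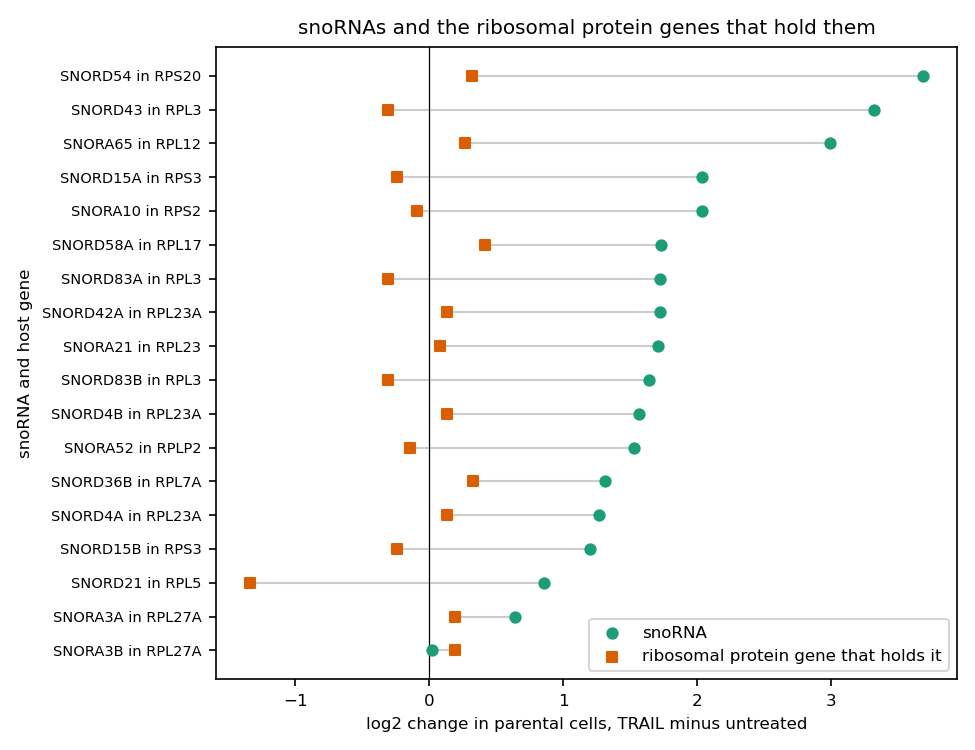
Log2 change of parental cells with TRAIL minus untreated parental cells (horizontal axis) for each of the 18 measured snoRNAs (circles) and for the ribosomal protein gene that holds it (squares). The snoRNAs reach 3.69, while the host genes, on the features kept, lie between −1.34 and 0.42. Other features of RPL12 and RPL27A changed by up to 1.30 and 1.23, and those of RPL5 by −0.96 and −0.41.

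Other mRNAs of the translation machinery were read from lists of related genes. The ribosomal proteins RPL36AL and FAU, whose symbols differ or fall outside the rule, rose in parental cells by 0.94 ± 0.12 and 0.28 ± 0.11 (adjusted p = 2.72e-06 and 0.0388), and FAU changed by −0.01 after median centring. Of 22 translation factors and other mRNAs known for a TOP tract, 3 rose and 13 fell with TRAIL in parental cells, with a median of −0.35. Median centring gave 2 and 15 of them, and quantile normalization 5 and 10. As deposited the shares were 13.6% and 59.1%, against 28.9% and 29.9% of all genes. HNRNPA1, an RNA-binding protein that regulates splicing, rose by 3.12 ± 0.16 and TPT1, a growth-related TOP mRNA, by 2.47 ± 0.15. EIF3F, a subunit of the initiation factor eIF3, fell by 1.57 ± 0.10 and NAP1L1, a histone chaperone, by 1.58 ± 0.12. In TTR cells TPT1 (0.87) and HNRNPA1 (0.82) rose and none of the 22 fell (limma, and 0 lower at an unadjusted p below 0.05). Over all genes 3.27% were called higher and 2.55% lower there, and 2208 of 18417 were lower at that unadjusted p.

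Genes that make and assemble ribosomes were read in the same way. Of 43 measured assembly factors and RNA polymerase I genes, 8 rose (18.6%) and 22 fell (51.2%) with TRAIL in parental cells, with a median of −0.28. The shares were 28.9% and 29.9% of all genes, and 15.6% and 71.3% of the other strongly measured genes. After median centring 6 of the 43 rose and 29 fell, against 12.6% and 46.7% of all genes. Quantile normalization gave 14 that rose and 18 that fell, against 19.1% and 31.4%. POLR1B, the second-largest subunit of RNA polymerase I, stood at 7.15, 6.91 and 7.10 in parental cells with TRAIL, against 9.09, 9.10 and 9.09 in untreated parental cells (−2.04 ± 0.10, adjusted p = 9.81e-11). WDR12 and WDR75, which process ribosomal RNA, and NMD3, which exports the large subunit, fell by 1.69, 1.72 and 1.45. In TTR cells 5 of the 43 rose with TRAIL, UBTF, TAF1C and TCOF1 among them, and 1 fell, POLR1B, by 0.47 ± 0.10 (adjusted p = 0.0113). After median centring 3 of the 43 rose and 6 fell in TTR cells, and after quantile normalization 3 rose and 1 fell, without TCOF1. Of all genes, 3.27% were called higher and 2.55% lower with TRAIL in TTR cells as deposited.

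Without TRAIL, 15 of the 43 assembly and RNA polymerase I genes were lower in TTR cells and none was called higher (limma, with 27 lower and 1 higher at an unadjusted p below 0.05), with a median of −0.29. Median centring and quantile normalization each left 14 of the 43 lower. Of all genes, 3.47% were called lower and 3.64% higher as deposited. At an unadjusted p below 0.05, 1745 of all 18417 genes were lower and 1730 higher. POLR1B was 1.23 ± 0.10 lower, at 7.94, 7.88 and 7.77 in untreated TTR cells against 9.09, 9.10 and 9.09 in untreated parental cells. RRP12 was 1.24 ± 0.12 lower, POLR1E 0.66 ± 0.09 lower and TSR1, a maturation factor of the small subunit, 0.70 ± 0.11 lower. Of the 22 TOP-list mRNAs 2 were lower in TTR cells, EIF3K (−0.42) and EIF3H (−0.37), and none was called higher (limma, and 0 higher at an unadjusted p below 0.05). Median centring left 1 of the 2.

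**Figure D5:**
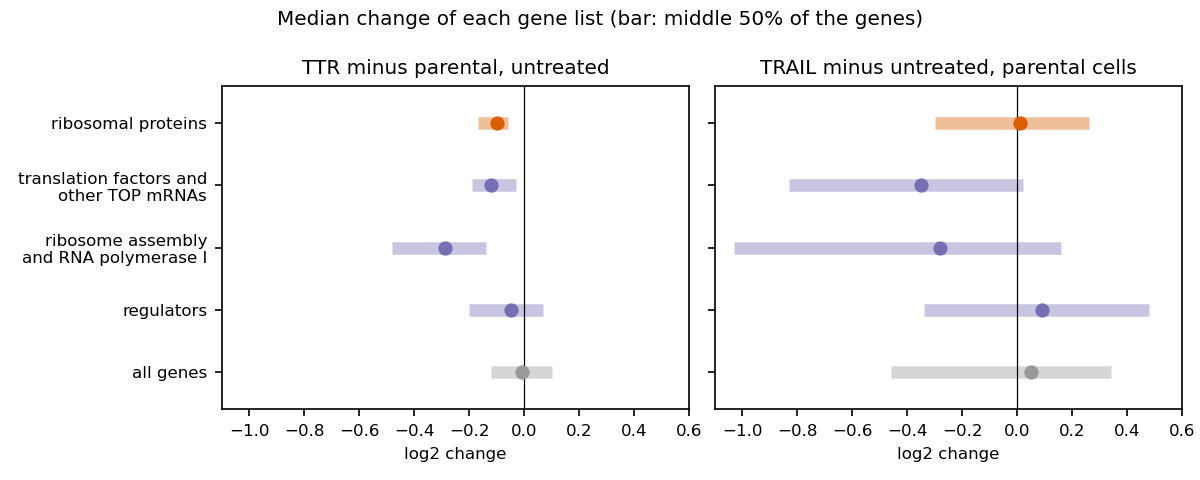
Median log2 change (points) and middle 50% of genes (bars) of 5 sets of genes, from top to bottom the 64 ribosomal protein genes, 22 translation factors and other TOP mRNAs, 43 assembly and RNA polymerase I genes, 19 regulators and all 18417 genes, for untreated TTR minus untreated parental cells (left) and for TRAIL minus untreated in parental cells (right). In untreated cells the medians are −0.10 for the ribosomal protein genes and −0.29 for the assembly and RNA polymerase I genes.

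Regulators of ribosomal protein synthesis moved in both directions, as all genes did. Of 19 measured, 7 rose (36.8%) and 5 fell (26.3%) with TRAIL in parental cells, against 28.9% and 29.9% of all genes. After median centring 4 rose and 9 fell, against 12.6% and 46.7% of all genes. Quantile normalization gave 8 that rose and 4 that fell, against 19.1% and 31.4%. MYC, a transcription factor that drives ribosome production, stood at 9.90, 9.92 and 9.96 in parental cells with TRAIL, against 7.93, 8.20 and 8.16 in untreated parental cells (1.83 ± 0.10, adjusted p = 4.75e-10). EIF4EBP2, a repressor of cap-dependent translation under mTORC1, fell by 1.94 ± 0.13, LARP4 by 1.05 ± 0.12 and MDM2 by 0.99 ± 0.12. In TTR cells MYC rose by 0.53 ± 0.10 and RPTOR, a subunit of mTORC1, by 0.41 ± 0.11, and RPTOR lost its call after median centring and after quantile normalization. Before TRAIL MYC stood at 9.06, 8.89 and 8.72 in TTR cells, against 7.93, 8.20 and 8.16 in parental cells (0.80 ± 0.10 higher, adjusted p = 1.68e-04). EIF4EBP1 (−0.47), TSC2 (−0.43) and ZNF598 (−0.38) were lower in TTR cells, and ZNF598 lost its call after quantile normalization.

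The mean deviation of the 64 genes from their own means lay between −0.151 and 0.105 log2 units on the 12 arrays. The genes whose pattern was most like it over these 12 arrays were YRDC (Pearson r = 0.934), SPATA19 (0.923), VPS51 (0.909), MIR142 (0.903) and C19orf53 (0.897). These r are descriptions only, since the arrays share groups and scaling.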

How the data were processed

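The authors deposited log2 values per array feature, made with RMA and Affymetrix Power Tools per the submitters' processing notes. Versions, settings and annotation build of this step are, beyond these names, not given in the sources used here. Per the labels' protocols, Trizol-extracted total RNA was turned into biotin-labelled cRNA. Array medians still differed after this step.

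Of 33252 features, 19460 named 1 gene, 1754 several and 12038 none, and the 18417 named genes were each read from the feature with the highest mean. A model of the 4 groups was fitted to all 12 arrays with limma 3.58.1 in R 4.3.3 (8 residual and 7.87 prior degrees of freedom), two-sided, with Benjamini-Hochberg adjustment over all genes and calls at an adjusted p below 0.05. The fit was tested on simulated data. Fold changes are 2 to the power of the log2 difference. Settings tried were median centring, quantile normalization, filters on low genes, the feature rule, array weights, the groups fitted, the replicate number as a block, and leaving out each array. The number of arrays, 3 a group, limits the precision. The replicate numbers were taken to pair arrays where all 3 same-numbered pairs of the groups compared correlated above 0.1 in their deviations from the group means, which held for TTR cells with and without TRAIL only. No 2 arrays held identical values.

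The genes and lists were chosen with earlier results of these data known. Genes were named by a rule: in each comparison up to 8 called genes with the largest rise and 8 with the largest fall (where none was called, up to 2 with the smallest p, as values), the 5 highest and 5 lowest by mean, the paralog pairs, the stalk proteins, RPL5 and RPL11, and Diamond-Blackfan anaemia genes. RPL41 was added after its values were seen.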

Additional observations from a re-analysis of the deposited data

Results flagged for a closer look

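The change with TRAIL differed between TTR and parental cells, by the limma test of the difference itself (TTR change minus parental change, adjusted p below 0.05), for these named genes. Among ribosomal protein genes it was positive for RPL5 (1.25), RPS13 (0.72), RPL22 (0.53), RPL7 (0.53), RPL7L1 (0.51), RPL18 (0.47), RPS6 (0.47), RPL4 (0.44), RPS14 (0.43), RPS4X (0.43), RPS3A (0.42), RPS15A (0.38) and RPL3 (0.34). It was negative for RPL32 (−0.85), RPL28 (−0.84), RPL13 (−0.80), RPL22L1 (−0.61), RPL3L (−0.57), RPS9 (−0.51), RPL10A (−0.50) and RPLP1 (−0.47).

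Among related genes it was positive for EIF4EBP2 (1.63), POLR1B (1.57), WDR12 (1.47), NAP1L1 (1.45), EIF3F (1.37), WDR75 (1.32), NMD3 (1.27), LARP4 (1.00) and MDM2 (0.82). It was negative for HNRNPA1 (−2.30), TPT1 (−1.60), MYC (−1.30) and RPL36AL (−0.57). It was also negative for the snoRNAs SNORD54 (−3.32), SNORA65 (−2.27), SNORD43 (−2.05) and SNORD42A (−1.62). The parental TRAIL arrays stand apart over all features, and their part in these differences was not tested.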

How the results depend on the processing

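Each of the 153 values of named ribosomal protein genes was recomputed under the alternatives that apply to it, 3315 recomputations in all: 3149 kept their direction and their side of the threshold, 130 no longer passed, 35 newly passed and 1 changed sign. The last was RPL10 with TRAIL in parental cells, at −0.04 after median centring. Median centring also moved the counts called higher and lower with TRAIL in parental cells to 5 and 34, between the lines with TRAIL to 25 and 12, and in the difference between the lines to 23 and 4, and it called 1 gene lower with TRAIL in TTR cells. Array weights called 3 higher and 1 lower with TRAIL in TTR cells. With every feature in the fit 2 genes were lower in untreated TTR cells and 5 were lower in the difference between the lines. Leaving out 1 array at a time gave 0 to 1 higher and 0 to 1 lower with TRAIL in TTR cells, 0 to 1 higher and 2 to 4 lower in untreated TTR cells, and 5 to 8 lower in the difference. The count of 4 lower in untreated TTR cells became 2 without any one of the untreated parental arrays or of untreated TTR arrays 2 and 3, and the 8 became 5 without untreated parental array 2, untreated TTR array 2 or TTR TRAIL array 2. The causes were not tested. Over all groups 8 of 18 same-numbered pairs of arrays deviated together (r above 0.1, range −0.055 to 0.395), and 10 of 12 arrays correlated best with their own number. The replicate block called 1 gene higher in untreated TTR cells, and with only the groups compared, chosen after seeing the data, 3 higher with TRAIL in TTR cells. Signals near the low end of the scale limit RPL22, RPL3L, RPL10L and RPS27L, and no background measure was used.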
